A study of Mus musculus with 2 samples.

Results

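The genes described here are 51 mouse genes for histone and DNA modifying enzymes and the proteins that work with them, out of 22359 protein-coding genes. They were chosen by name and by enzyme class. No read count entered this rule, but the list was made with earlier results of these data known. It holds 13 Polycomb genes, 8 genes of DNA methylation and demethylation, 15 histone methyltransferases and their cofactors, 10 histone demethylases and 5 genes of histone acetylation and deacetylation. The study asked where Zfp322a, a zinc finger protein, binds in the genome of mouse embryonic stem (mES) cells. Chromatin of E14 cells, an mES cell line kept undifferentiated with leukaemia inhibitory factor and given the strain label C57BL/6, was precipitated with anti-ZNF322 antibody (the Zfp322a ChIP library) or with an antibody labelled as anti-Rabbit IgG (the IgG library). The labels name no genetic change and no treatment, and both libraries came from the same cell line. Each antibody had 1 library, so no value here has a replicate check, and every test compares these libraries and not conditions. ChIP reads carry no expression values, so the labelled cell type could not be checked against its marker genes.

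Polycomb complexes silence developmental genes in mES cells: PRC2 methylates lysine 27 of histone H3 and PRC1 ubiquitylates histone H2A. Other methyltransferases mark active promoters through lysine 4 of H3 or silenced chromatin through lysine 9, and demethylases of the KDM families remove these marks. DNA methyltransferases set and copy cytosine methylation, the TET enzymes oxidise it, and acetyltransferases such as p300 open chromatin at enhancers and promoters.

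Reads were counted when their mapping quality was at least 25, a score that drops for reads from repeated sequence. The Zfp322a library held 4151151 such reads of 5187475 mapped reads (80.0%), and the IgG library 3877802 of 4843481 (80.1%). For each gene, reads were counted once in the union of the windows from -1000 to +1000 bp of its protein-coding transcription start sites (TSSs) in mm9. The fold per read is the Zfp322a count over the IgG count, each divided by its library total, with an exact 95% interval that covers counting error only. The exact conditional binomial read test was adjusted by Benjamini-Hochberg over the 21200 protein-coding genes with reads. A putative site is a stretch where at least 9 fragments of 300 bp overlapped, with at least 3 times the IgG height, which are the criteria of the study.

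The enzyme genes as a group had more reads per gene than other genes, and most had somewhat more Zfp322a than IgG reads, as most genes did. Their median was 31 Zfp322a and 17 IgG reads in windows with a median length of 4000 bp, against 13 and 9 reads and 2000 bp over all protein-coding genes. The fold per read was above 1 at 40 of 51 enzyme genes (78.4%), against 66.9% of all genes tested, a gap that nearly closes among genes with at least 20 reads (79.6% against 78.1%). It ran from 0.604 to 5.02 with a median of 1.53 and quartiles of 1.15 and 1.81, and the median over all genes was 1.3 with quartiles of 0.934 and 1.87. When the reads were scaled to all promoter windows in place of the library totals, the median of all genes moved by -0.43 on the log2 scale, to 0.966, and that of the enzyme genes to 1.14. Folds are therefore best read against the median of 1.3, and a fold between 1 and 1.3 lies above IgG only under the scaling to library totals.

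**Figure D1:**
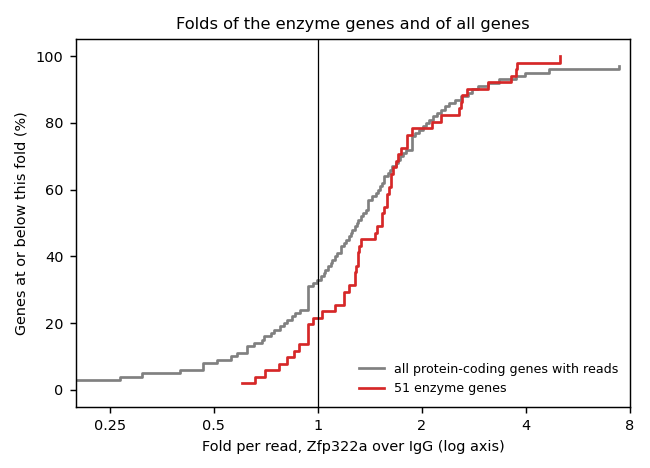
Cumulative share of genes (y axis, percent) at or below each fold per read of Zfp322a over IgG (x axis, log scale), for the 51 enzyme genes and for all protein-coding genes with reads. The median is 1.53 for the enzyme genes and 1.3 for all genes, and the curves lie close together above a fold of 2.

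At least 2-fold more Zfp322a reads, with at least 10 of them, were found at 11 enzyme genes (21.6%), against 15.1% of all genes tested. No enzyme gene was at or below 0.5-fold with at least 10 IgG reads, which 1.54% of all genes were. The exact interval of the fold lay above 1 at 9 enzyme genes (17.6%), against 13.2% of all genes. The read test was passed by 5 enzyme genes (9.8%), against 3.37% of all genes, and 14 (27.5%) held a putative site in their windows, against 12.7%. A region deposited by the authors lay in the windows of 3 enzyme genes (5.88%), against 3.41% of all genes. These shares are read here beside the depth, because a gene with few reads could hardly be called. Among genes with at least 20 reads of both libraries together, the 2-fold share was 20.4% of 49 enzyme genes and 21% of 12827 genes. On that base the read test was passed by 10.2% against 5.5%, sites were held by 28.6% against 20.7%, and deposited regions by 6.12% against 5.53%. A fold above 1 was found at 79.6% against 78.1%, and an exact interval above 1 at 18.4% against 20.3%. Above this read minimum the 2-fold share, the share with a fold above 1 and the share with an interval above 1 thus lay near the background, and the shares for the read test, sites and deposited regions lay above it by small numbers of genes. The minimum did not match depth: the enzyme genes above it still had a median of 51 reads in 4000 bp, against 36 reads in 2083 bp over all genes above it.

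The 5 genes past the read test were *Nsd1*, *Carm1*, *Kdm5a*, *Suz12* and *Ehmt1*: 3 methyltransferase genes, 1 demethylase gene and 1 Polycomb gene. The mm9 sequence of 150 bases around the Zfp322a summit of each is shown, 5′ to 3′ on the strand of the gene, because these are the stretches of DNA where the largest Zfp322a pileups of these genes lie. Letters in capitals mark matches to the YY1 core AAGATGG or the ETS motif CCGGAAG, read on both strands. They come from the forward strand at chr13:55312452-55312601 (Nsd1), chr9:21350835-21350984 (Carm1), chr6:120313934-120314083 (Kdm5a) and chr11:79806084-79806233 (Suz12), and from the reverse strand at chr2:24774847-24774996 (Ehmt1).
Nsd1: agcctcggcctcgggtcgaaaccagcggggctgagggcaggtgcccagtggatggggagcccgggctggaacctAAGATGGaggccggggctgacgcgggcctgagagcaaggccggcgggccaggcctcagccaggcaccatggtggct
Carm1: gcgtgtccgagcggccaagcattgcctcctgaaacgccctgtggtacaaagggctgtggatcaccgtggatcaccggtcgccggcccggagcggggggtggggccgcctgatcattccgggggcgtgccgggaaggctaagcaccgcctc
Kdm5a: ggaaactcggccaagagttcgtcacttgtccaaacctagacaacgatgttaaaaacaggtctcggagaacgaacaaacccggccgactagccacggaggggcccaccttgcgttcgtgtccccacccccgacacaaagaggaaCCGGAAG
Suz12: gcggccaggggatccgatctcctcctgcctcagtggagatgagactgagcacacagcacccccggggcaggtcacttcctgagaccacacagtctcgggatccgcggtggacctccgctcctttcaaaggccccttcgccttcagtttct
Ehmt1: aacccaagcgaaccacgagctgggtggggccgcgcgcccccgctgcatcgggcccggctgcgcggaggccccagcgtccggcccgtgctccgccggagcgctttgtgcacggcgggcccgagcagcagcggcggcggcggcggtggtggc
The stretches at *Nsd1* and *Ehmt1* lie in introns, and the others lie upstream of the first TSS. Their GC content was 72% at *Nsd1*, 69.3% at *Carm1*, 56.7% at *Kdm5a*, 62.7% at *Suz12* and 80% at *Ehmt1*, and they held 8 to 24 CpG dinucleotides. The YY1 core occurs once at *Nsd1* and the ETS motif once at *Kdm5a*. None of the 6 motifs searched occurs in the other 3 sequences, which says only that these letters are not in these 150 bases.

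**Figure D2:**
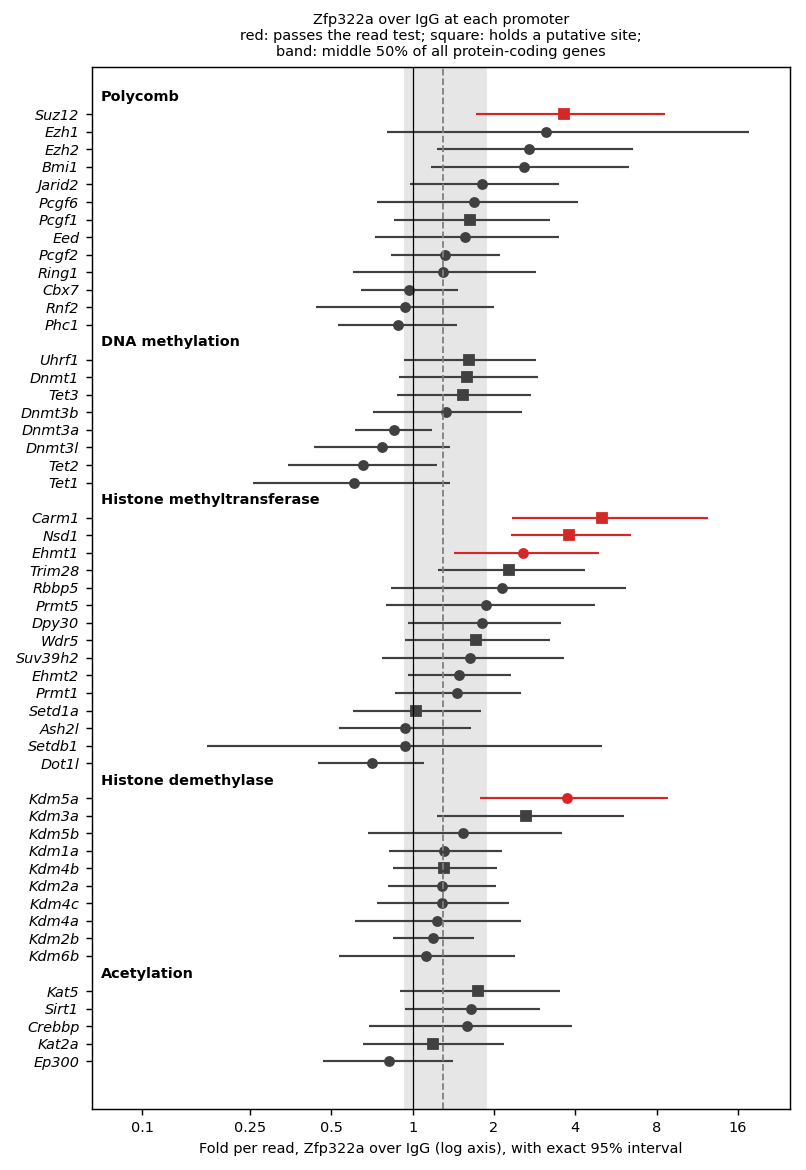
Fold per read of Zfp322a over IgG (x axis, log scale) for each of the 51 enzyme genes, with its exact 95% interval as a line. Red marks the 5 genes past the read test, squares the 14 genes with a putative site, the dashed line the median of all protein-coding genes (1.3) and the grey band their quartiles (0.934 to 1.87); most intervals cross 1.

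Among the Polycomb genes, the PRC2 subunit *Suz12* passed the read test and the catalytic subunits *Ezh2* and *Ezh1* reached 2-fold without passing it. *Suz12*, a core subunit without which PRC2 is not stable, had 35 Zfp322a and 9 IgG reads, a fold of 3.63 (interval 1.71 to 8.59, adjusted p = 0.0127 in the exact test). Its putative site spanned 79806023 to 79806393 on chromosome 11 with a height of 15 against 4, and the summit lay at -449 bp from the TSS. This was the single Polycomb gene whose reads differed between the libraries in the test, and it lost that call under both promoter scalings, at folds of 2.71 and 2.67. In windows of 500 bp to each side and from -1000 to +100 bp its fold was larger, 4.11 and 4.2, with fewer reads and adjusted p of 0.0547 and 0.0519 in the exact test.

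*Ezh2*, the main H3K27 methyltransferase of mES cells, had 26 Zfp322a and 9 IgG reads, a fold of 2.7 (interval 1.23 to 6.55, adjusted p = 0.143 in the exact test). *Ezh1*, its paralog, had 10 and 3 reads, and its fold of 3.11 had an interval from 0.802 to 17.6. The PRC1 gene *Bmi1* (Pcgf4) had 25 and 9 reads, a fold of 2.59 (interval 1.17 to 6.32, adjusted p = 0.175 in the exact test). Neither *Ezh1*, *Ezh2* nor *Bmi1* held a putative site, and their heights were 4 to 7 fragments. The other PRC1 genes lay lower. *Pcgf1*, of a PRC1 variant that is drawn to CpG islands by *Kdm2b*, had 28 and 16 reads, a fold of 1.63, and a site of height 10 against 2 around -616 bp from a TSS. *Pcgf2* (Mel18) had 48 and 34 reads, a fold of 1.32. The H2A ubiquitin ligase genes *Ring1* and *Rnf2* (Ring1b) had 18 and 13 reads and 16 and 16 reads, folds of 1.29 and 0.934, and in windows from -1000 to +100 bp these became 0.934 and 2.1. *Phc1*, a polyhomeotic subunit, was the lowest at 33 and 35 reads, a fold of 0.881. The remaining 4 Polycomb genes had folds from 0.972 to 1.81, and none was called. The median of the 13 genes was 1.63, with 10 above 1, or 8 above 1 under either promoter scaling.

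**Figure D3:**
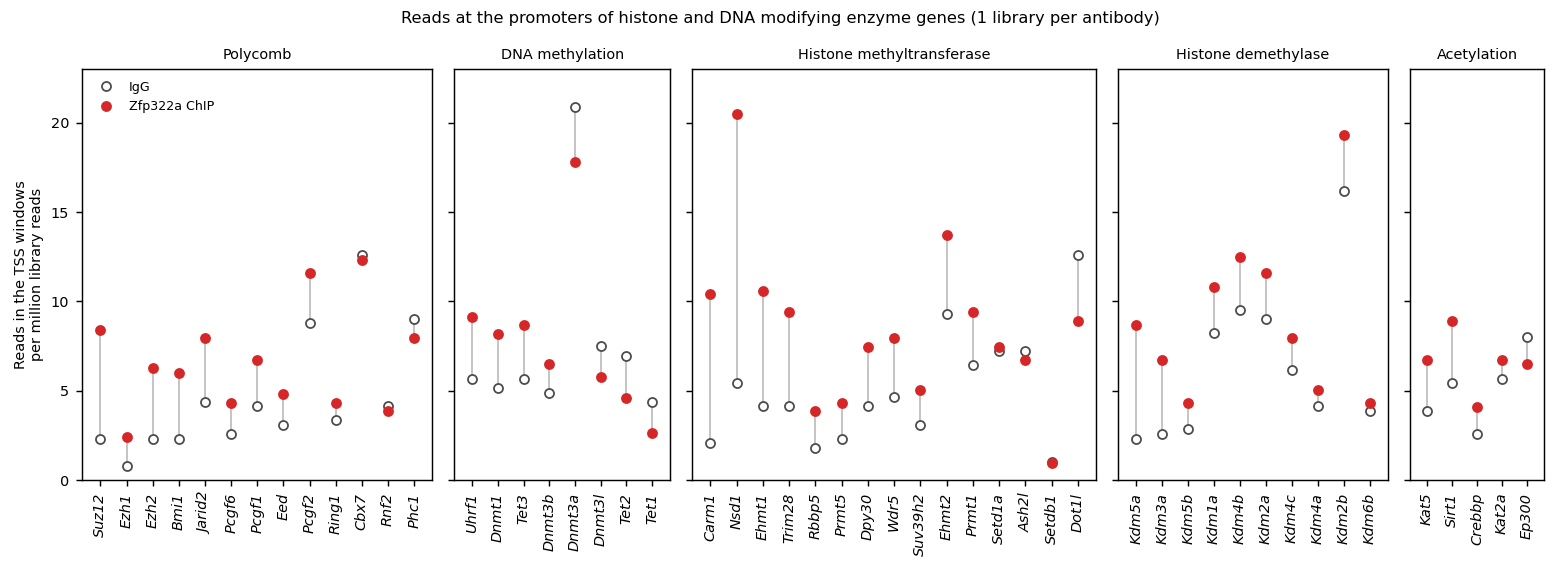
Reads in the TSS windows scaled to library size as RPM (y axis) for each of the 51 enzyme genes, with the Zfp322a ChIP library as filled red points and the IgG library as open points, 1 library each, ordered by fold within a class. The largest gap is at *Nsd1*, with 20.5 against 5.42, and IgG exceeds Zfp322a at *Dnmt3a*, with 20.9 against 17.8.

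Of the methyltransferase genes and their cofactors, the largest class, 5 of 15 (33.3%) reached 2-fold, 3 (20%) passed the read test and 5 (33.3%) held a site. Over all genes tested these shares were 15.1%, 3.37% and 12.7%. Among all genes with at least 20 reads they were 21%, 5.5% and 20.7%. The classes are small, so their shares rest on few genes. The 2-fold share was 30.8% of the Polycomb and 20% of the demethylase genes, and sites were held by 40% of the 5 acetylation and 37.5% of the 8 DNA methylation genes. *Nsd1*, which methylates lysine 36 of H3, had the most Zfp322a reads of the 51 genes, 85 against 21, a fold of 3.78 (interval 2.32 to 6.42, adjusted p = 2.58e-06 in the exact test). Its site spanned 55312289 to 55312811 on chromosome 13 and had the highest pileup of the 51 genes, 25 against 4. The summit lay in an intron, at -909 bp from the second TSS and beyond the window of the first. The window of the first TSS held 29 and 10 reads, a fold of 2.71, and that of the second 56 and 11, a fold of 4.76. Both thus lay above the IgG level, and the second held the summit but not the start of the site. A region deposited by the authors overlapped the windows of *Nsd1* as well.

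*Carm1* (Prmt4), an arginine methyltransferase that acts on histone H3 with p300, had the highest fold. Its windows held 43 Zfp322a and 8 IgG reads, a fold of 5.02 (interval 2.33 to 12.4, adjusted p = 4.61e-04 in the exact test). Its site was wide, from 21350303 to 21351148 on chromosome 9, upstream of the gene, with a height of 14 against 4 and a summit at -428 bp from the TSS. The windows of *Carm1* too overlapped a deposited region. *Carm1* and *Nsd1* were the only enzyme genes past the read test under both promoter scalings, and both missed it in windows of 500 bp to each side of the TSS. *Ehmt1* (GLP), which with *Ehmt2* (G9a) sets H3K9 dimethylation, had 44 and 16 reads, a fold of 2.57 (interval 1.42 to 4.88, adjusted p = 0.0282 in the exact test). Its reads came from 3 windows with 25 and 11, 10 and 3, and 9 and 2 reads. The folds were 2.12 (interval 1.01 to 4.78), 3.11 (0.802 to 17.6) and 4.2 (0.87 to 40), so only the first interval lay above 1. The height of 13 against 5 did not meet the criteria for a site. Of the 5 genes, *Ehmt1* was the nearest to the threshold, and 6 of 7 alternatives took it out of the calls.

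*Trim28* (KAP1), the corepressor that KRAB zinc finger proteins recruit together with H3K9 methylation, had 39 and 16 reads, a fold of 2.28 (interval 1.24 to 4.36, adjusted p = 0.0857 in the exact test). It held a site of height 10 against 3, while its highest point, 12 against 5 fragments 248 bp after the TSS, did not meet the criteria. *Rbbp5*, a shared subunit of the H3K4 methyltransferase complexes, had 16 and 7 reads, a fold of 2.14 with an interval from 0.831 to 6.14. *Wdr5*, another shared subunit, had 33 and 18 reads, a fold of 1.71, and a site of height 9 against 3 around -178 bp from a TSS. *Setd1a*, a catalytic subunit of the same complexes, had a site of the lowest height allowed, 9 against 3, with 31 and 28 reads in the windows, a fold of 1.03. A site was thus called at a gene whose windows as a whole had a fold near 1.

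*Dot1l*, the H3K79 methyltransferase, was the lowest of the class with 37 Zfp322a and 49 IgG reads, a fold of 0.705 (interval 0.447 to 1.1, adjusted p = 0.509 in the exact test). In windows of 500 bp to each side it had 14 and 37 reads, a fold of 0.353, with an adjusted p of 0.0317 in the exact test. It was the 1 member with fewer Zfp322a than IgG reads past the test in any of the settings run. The IgG height in its windows reached 13 fragments against 7 for Zfp322a. The remaining 6 genes of the class had folds from 0.934 to 1.87, and that of *Setdb1* rested on 4 reads of each library. The class had a median of 1.71, with 12 of 15 above 1, or 11 under either promoter scaling.

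*Kdm5a* had the highest fold of the demethylase genes and was the only gene of this class past the read test in these windows. It encodes a demethylase of H3K4 trimethylation, and its windows held 36 Zfp322a and 9 IgG reads, a fold of 3.74 (interval 1.77 to 8.82, adjusted p = 0.0096 in the exact test). The height was 14 against 5, under 3 times the IgG height, so no site was called. The windows are shared with *Ccdc77*, which starts close by, so the reads cannot be given to 1 of the promoters. The summit lay at -108 bp from the *Kdm5a* TSS. Under both promoter scalings *Kdm5a* kept a fold of at least 2 and no longer passed the test. *Kdm5b*, its paralog, had 18 and 11 reads, a fold of 1.53. *Kdm3a*, which removes H3K9 mono- and dimethylation, had 28 and 10 reads, a fold of 2.62 (interval 1.23 to 6.04, adjusted p = 0.128 in the exact test), and a site of height 10 against 3 around -459 bp from a TSS.

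*Kdm4b*, a demethylase of H3K9 trimethylation, had the second highest pileup of the 51 genes although its fold was 1.31. The site spanned 56465091 to 56465929 on chromosome 17 around the first TSS with a height of 21 against 5. The window there held 43 and 22 reads, a fold of 1.83 (interval 1.07 to 3.21), and the other window, at an internal TSS, 9 and 15 reads, a fold of 0.56, so the folds of its windows lay on either side of 1. In windows of 500 bp to each side *Kdm4b* had 43 and 14 reads and passed the read test at a fold of 2.87 (adjusted p = 0.0204, exact). Its relatives *Kdm4a* and *Kdm4c* had 21 and 16 and 33 and 24 reads, folds of 1.23 and 1.28, with no site. The H3K36 demethylase genes *Kdm2a* and *Kdm2b* had 48 and 35 and 80 and 63 reads, folds of 1.28 and 1.19. *Kdm6b*, an H3K27 demethylase gene, was the lowest at 18 and 15 reads, a fold of 1.12, and the remaining gene, *Kdm1a* (LSD1), had 45 and 32 reads, a fold of 1.31. All 10 demethylase genes lay above 1 in these windows under the scaling to library totals. In windows of 500 bp to each side 9 of 10 did, with *Kdm6b* at 0.545, and in windows from -1000 to +100 bp 9 of 10, with *Kdm4b* at 0.983. In the windows of 1000 bp to each side, 3 and 4 of 10 did under the scalings to all promoter windows and to those of the same GC decile. The class median of 1.3 was that of all genes.

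The genes of DNA methylation had a median fold of 1.09, and none reached 2-fold or passed the read test. The median was the lowest of the classes when the windows of a gene were summed, but with the single window with the most reads it was 1.48, with 6 of 8 above 1, against 1.19 for the acetylation genes. *Uhrf1*, which brings the maintenance methyltransferase to replicating DNA, was the highest with 38 Zfp322a and 22 IgG reads, a fold of 1.61 (interval 0.93 to 2.86), and a site of height 10 against 2 at 34 bp after a TSS. *Dnmt1*, the maintenance methyltransferase, had 34 and 20 reads, a fold of 1.59 (interval 0.888 to 2.91). Its site, from 20756830 to 20756926 on chromosome 9, had a height of 9 against 1, while at the highest point of the window, at -70 bp from the TSS, Zfp322a reached 10 and IgG 11. The de novo methyltransferase *Dnmt3b* had 27 and 19 reads, a fold of 1.33. *Dnmt3a*, with 7 separate windows, had 74 and 81 reads, a fold of 0.853 (interval 0.614 to 1.18). Its windows ran from 0.385-fold (7 and 17 reads) to 1.44-fold (20 and 13 reads), and none held a site. The remaining gene, the cofactor *Dnmt3l*, had 24 and 29 reads, a fold of 0.773, in windows it shares in part with *Aire*.

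The TET genes, whose products oxidise methylated cytosine, had folds on either side of 1. *Tet3* had 36 and 22 reads, a fold of 1.53 (interval 0.875 to 2.73). Nearly all of this came from 1 window with 30 and 14 reads, a fold of 2, and a site of height 15 against 3, in an intron 284 bp after the TSS. *Tet2* had 19 and 27 reads, a fold of 0.657, and *Tet1*, the lowest of the 51 genes, 11 and 17 reads, a fold of 0.604 (interval 0.256 to 1.37). In mES cells *Tet1* and *Tet2* are the TET genes known to be expressed. Of the 8 genes of the class 4 lay above 1, and 3 did under either promoter scaling.

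The 5 acetylation genes had folds from 0.814 to 1.74 with a median of 1.59, and none reached 2-fold or passed the read test. *Kat5* (Tip60), the acetyltransferase of the NuA4 complex, had 28 and 15 reads, a fold of 1.74 (interval 0.9 to 3.51), and a site of height 12 against 4 around -151 bp from a TSS. *Kat2a* (GCN5), of the SAGA complex, had 28 and 22 reads, a fold of 1.19 (2.4 in windows of 500 bp to each side, with 18 and 7 reads), and a site of the same heights around -40 bp from a TSS. The windows of *Kat2a* are shared with *Hspb9* and overlapped a deposited region. Whether deposited regions overlapped the putative sites themselves was not computed for the enzyme genes. *Ep300* (p300) had 27 and 31 reads, a fold of 0.814 (1.11 in the single window with the most reads), and *Crebbp* (CBP) 17 and 10, a fold of 1.59. The remaining gene, the deacetylase *Sirt1*, had 37 and 21 reads, a fold of 1.65, in windows shared with *Dnajc12*.

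**Figure D4:**
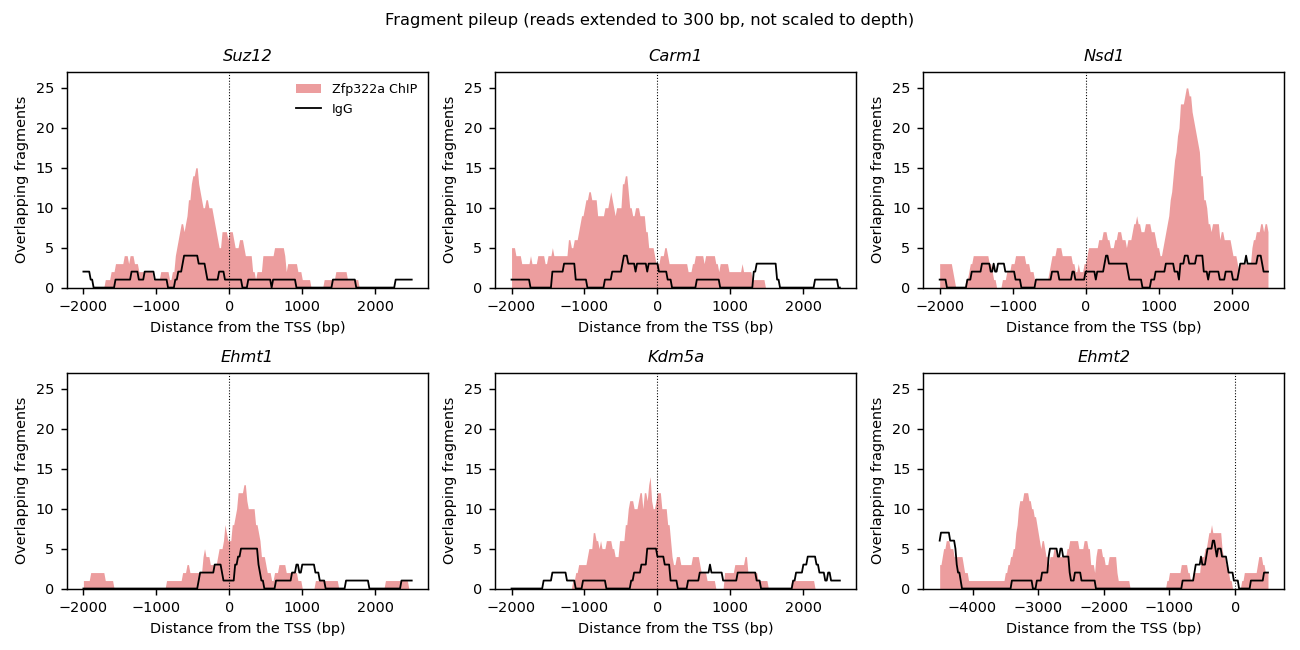
Number of overlapping fragments (y axis, highest value in 20-bp bins, reads extended to 300 bp, not scaled to depth) against the distance from a TSS in bp (x axis) for the 5 genes past the read test and for *Ehmt2*, with Zfp322a in red and IgG as a black line. *Nsd1* reaches 25 fragments after its first TSS, and at *Ehmt2* the higher pileup lies at the amplicon, whose middle is 3205 bp before the gene's first TSS.

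*Ehmt2* (G9a) is a gene for which the study lists ChIP primers, and its own TSS windows were not called. They held 57 Zfp322a and 36 IgG reads, a fold of 1.48 (interval 0.958 to 2.31, adjusted p = 0.4 in the exact test), with a height of 8 and no site. The windows overlap those of *C2*. The primers cttcccacccagggcagtc and gagctggttcatgttccgca are shown because they place the locus the study measured, and each is given 5′ to 3′. They match mm9 at 1 place, chr17:35032154-35032263, an amplicon of 110 bp whose middle lies 3205 bp before the first *Ehmt2* TSS. The amplicon covers UTR and coding sequence of an exon of *Zbtb12*, a zinc finger gene, and its middle lies 705 bp after the TSS of that gene. The stretch at the amplicon had a height of 12 against 1, and 2000 bp around it held 28 and 9 reads, a fold of 2.91 (interval 1.33 to 7). It overlaps a deposited region, which the authors called from the same reads, so the excess there is a description. The amplicon was therefore nearer to the promoter of *Zbtb12* than to that of *Ehmt2*.

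The genes of 14 paralog pairs were compared directly with Fisher's exact test on the reads of both libraries, two-sided and adjusted over the 14 pairs. No pair had an adjusted p under 0.05. The 1 pair with an unadjusted p under 0.05 was *Tet2* and *Tet3*, where the fold of *Tet2* was 0.434 times that of *Tet3* (interval 0.181 to 1.02, unadjusted p = 0.048, adjusted p = 0.401, exact test). *Kdm5a* against *Kdm5b* gave a ratio of 2.41 with an interval from 0.755 to 7.96. *Bmi1* against *Pcgf2* gave 1.96 (0.764 to 5.39) and *Ehmt1* against *Ehmt2* gave 1.73 (0.813 to 3.79). At *Ezh1* against *Ezh2* the ratio was 1.15, with an interval from 0.221 to 7.95 that 10 and 3 reads at *Ezh1* leave wide. *Kdm2a* against *Kdm2b* gave a ratio of 1.08 with an interval from 0.604 to 1.94. A gene past the read test and a paralog that missed it are thus not shown to differ.

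Another 83 chromatin modifier genes (85 gene records) were counted for comparison, among them HDACs, MLL genes and further Polycomb and PRMT genes. Their median fold was 1.47, 12 (14.1%) reached 2-fold, 17 (20%) held a site and 3 (3.53%) passed the read test. These were *Rbbp4*, a histone chaperone found in PRC2 and HDAC complexes, with 44 and 14 reads (fold 2.94, adjusted p = 0.0121, exact), *Trdmt1* (Dnmt2), a tRNA methyltransferase, with 30 and 7 (fold 4, adjusted p = 0.0186, exact), and *Whsc1l1* (Nsd3), a relative of *Nsd1*, with 51 and 20 (fold 2.38, adjusted p = 0.0297, exact). The 2-fold and read test shares of these genes lay near the background of 15.1% and 3.37%. Sites were held by 12.7% of all genes tested and by 20.7% of all genes with at least 20 reads.

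Around the TSS with the most reads of each enzyme gene, both libraries had more reads than farther away. That TSS was chosen by its reads, which favours such a rise in genes with several TSSs. From -300 to +300 bp the 51 genes held 480 Zfp322a and 276 IgG reads, a fold of 1.62 (interval 1.4 to 1.89), against 1.58 over all protein-coding genes. From -1000 to -300 bp it was 1.6 (1.36 to 1.9) against 1.3, and from 300 to 1000 bp 1.44 (1.21 to 1.72) against 1.33. From -2000 to -1000 bp it fell to 1.13 and from 1000 to 2000 bp it was 1.2, against 1.1 and 1.11 over all genes. The enzyme genes were close to all genes at the TSS itself, and the largest gap in value between them lay from -1000 to -300 bp. The 20 enzyme genes called at 2-fold, by the read test or by a site held much of the reads there. They had 218 of the 395 Zfp322a and 89 of the 230 IgG reads from -1000 to -300 bp, a fold of 2.29 (1.78 to 2.96). These genes were called on the same reads, so this is a description, and the gap is not shown for the enzyme genes that were not called. The part of single genes in the gap was not tested.

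**Figure D5:**
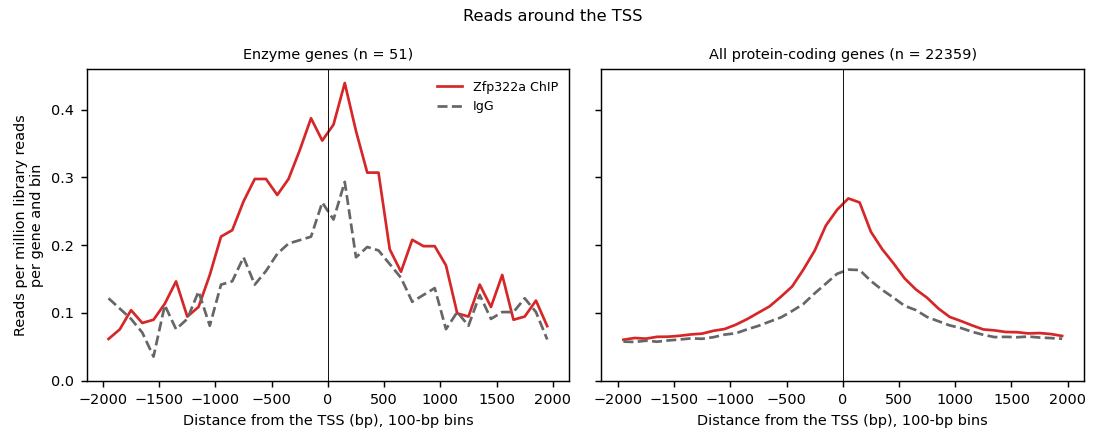
RPM per gene and 100-bp bin (y axis) against the distance in bp (x axis) from the TSS with the most reads of each gene. The panels show the 51 enzyme genes and all 22359 protein-coding genes, with Zfp322a as a red line and IgG as a dashed grey line. Both libraries peak near the TSS, and the enzyme genes have more reads of both.

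The windows of the enzyme genes were richer in GC and CpG than those of most genes, with a median GC content of 55.2% against 50.3% and 4.33 against 2.67 CpG dinucleotides in 100 bp. Over all genes the median fold moved with GC content, from 0.934 in the lowest GC decile to 1.4 in the sixth and 1.33 in the highest, and the 2-fold share from 0.371% to 20.8% and 17.1%. The part of GC content in the folds was not tested beyond the scaling within GC deciles, which left 5 enzyme genes at 2-fold (*Carm1*, *Nsd1*, *Kdm5a*, *Suz12* and *Ezh1*) against 5.83% of all genes. Within 250 bp of the TSS, the GC box GGGCGG occurred at 43 enzyme genes (84.3%) against 54.2% of all genes. The YY1 core AAGATGG occurred at 12 (23.5%) against 10.9%. The E-box CACGTG was at 9 (17.6%) against 10.5%, the CCAAT box CCAAT at 21 (41.2%) against 47.1%, the ETS motif CCGGAAG at 6 (11.8%) against 14.6% and the NRF1 motif GCGCATGC at 1 (1.96%) against 3.91%. Motifs were read on both strands, and a match is a description of the sequence and not a bound site.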

How the data were processed

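Chromatin of E14 cells was measured by ChIP-seq, with 1 library for each antibody. The authors sequenced on the Genome Analyzer IIx and mapped the reads to mm9; the submitters' processing notes name CASAVA 1.4, BWA and Partek 6.6. They deposited each mapped read with its position, strand and mapping quality score, and the reads inside numbered regions of their peak detection, which form 754 distinct Zfp322a intervals. The IgG library has 740 such intervals. The putative binding sites that the paper reports are more numerous than the deposited Zfp322a intervals.

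Reads with a mapping quality score of at least 25 were counted once, by the 5′ end, in the union of the windows of 1000 bp to each side of all TSSs of protein-coding transcripts (GENCODE vM1). Deposited reads that shared a position and strand were all kept, in the counts and in the heights. Folds were scaled to library totals. Counts were tested with the exact conditional binomial test, two-sided, with Benjamini-Hochberg adjustment over 21200 genes, and called at an adjusted p under 0.05. Putative sites follow the criteria of the study for height and fold. Stretches at most 300 bp apart were joined, IgG heights were not scaled, an IgG height of 0 was taken as 1, and the strand test of the study was not applied. At this depth a site near the threshold rests on 9 fragments. Tests and intervals were computed with scipy 1.17.1 in Python 3.11.15 (pandas 2.3.3, numpy 2.4.6), the genome was read with pysam 0.24.0 and figures were drawn with matplotlib 3.10.9. The read test and its interval were checked on simulated counts, where unchanged genes had a fold of 1 under the scaling to library totals. A shift of all promoters like the median of 1.3 seen here was not simulated, so the check does not cover it. The site search was checked on simulated reads over a flat background, without the rise of both libraries at promoters. The counting of reads in windows was not checked on simulated data.

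Genes named with values were those called at 2-fold, by the read test or by a site, the highest and lowest fold of each class, the paralog pairs and *Ehmt2*. The last remaining gene of a class, *Setdb1*, and the called genes of the comparison list are named besides. The enzyme genes and all lists were chosen with earlier results of these data known. Alternatives were other windows, read positions, scalings, thresholds and all reads whatever their mapping quality. The expression experiments of the study were not analysed here.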

Additional observations from a re-analysis of the deposited data

How the results depend on the processing

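With 1 library for each antibody no library could be left out and no replicate spread exists. No paired analysis was possible because the labels give no replicate numbers. The number of enzyme genes at 2-fold, 11 of 51, became 6 when scaled to all promoter windows and 5 when scaled within GC deciles. The background under these scalings was 6.15% and 5.83% of all genes. The number rose to 16 in windows of 500 bp to each side, against 17.7% of all genes. It was 14 both in windows from -1000 to +100 bp and in the single window with the most reads, against 14.7% and 17%. It was 26 at a fold of at least 1.5 and 5 at a fold of at least 3. The shares of all genes at these folds were not computed. Without a read minimum, 1.49 was the 60th and 2.9 the 91st percentile over all genes tested. The number past the read test, 5, became 2 in windows of 500 bp to each side (*Kdm4b* and *Kdm5a*), 3 in windows from -1000 to +100 bp, and 2 under either scaling (*Carm1* and *Nsd1*). The share of all genes past it, 3.37%, became 2.78%, 1.15%, 0.401% and 0.316% in the same order. The number with a site, 14, became 8 at a height of at least 11 and 2 at a fold of heights of at least 9. The shares of all genes with a site at these thresholds were not computed. The median fold of 1.53 became 1.14 and 1.1 under the scalings, where the median of all genes became 0.966 and 0.971. The lower counts under higher thresholds follow from the thresholds, and the cause of the other changes was not tested. The remaining counts stayed within 1.5 times their value, and no pair differed in any of the 5 alternatives run on pairs.

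Of 38 named genes under 7 alternatives each, 250 of 266 folds stayed on their side of the read test's threshold. Calls were lost 14 times, at *Nsd1* and *Carm1* (windows of 500 bp to each side), *Suz12*, *Kdm5a* and *Ehmt1*, and gained 2 times, at *Kdm4b* and *Dot1l*. Folds moved more than these calls did. Other windows took *Rnf2* from 0.934 to 2.1, *Dnmt3a* from 0.853 to 1.56, *Ep300* from 0.814 to 1.11, *Phc1* from 0.881 to 1.16, *Kdm6b* from 1.12 to 0.545, *Pcgf2* from 1.32 to 0.895, *Ring1* from 1.29 to 0.934, *Tet3* from 1.53 to 0.989 and *Kdm4b* from 1.31 to 0.983, each across 1. Without crossing 1, *Kat2a* moved from 1.19 to 2.4, *Ezh1* from 3.11 to 4.67, *Tet2* from 0.657 to 0.425 and *Carm1* from 5.02 to 3.18. The shares among genes with at least 20 reads were added after the data were seen.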

Other observations

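Some putative sites lay in or near the enzyme genes outside their TSS windows. In *Kdm2a* a site in an intron, from 4332650 to 4333038 on chromosome 19, had a Zfp322a height of 15 against 2 for IgG and lay 26554 bp from the nearest protein-coding TSS, with 31 Zfp322a and 9 IgG reads in the 2000 bp around it. In *Kdm6b* a site in an intron had a height of 12 against 3 and another, in a coding exon, 9 against 3, with 35 and 14 reads and 30 and 14 reads around them. *Jarid2*, a PRC2 cofactor gene, held a site of height 11 against 3 in an intron, 2735 bp from the nearest TSS. Upstream of *Kdm5b* a site of height 11 against 3 lay 3182 bp from its nearest TSS, with 23 and 11 reads around it. Near *Bmi1* a site of height 14 against 3 lay at the TSS of *Commd3*, at -4596 bp from the start of *Bmi1*, with 29 and 6 reads around it. These sites were found with the same reads and criteria as those in the windows, were named after their values were seen, and were not tested.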
